A study of Mus musculus with 12 samples.

Results

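Mouse embryonic stem (ES) cells that lack Eed were compared with wild type ES cells, on 6 of the series' 12 arrays. All annotated probe sets were used, and 13984 of the 18193 genes they represent passed the filter on low signals and were tested. Messenger RNA had been hybridised to Affymetrix Mouse 430_2.0 arrays, with 3 arrays per genotype described as biological triplicates. The other 6 arrays, 3 of Ring1B deficient cells and 3 of cells deficient for both proteins, entered the model for its estimate of spread and are named only where a difference from them was tested or a level is set beside them. Per the labels, the Eed mutant and the Ring1B mutant were made by gene targeting, the double mutant came from the Eed deficient cells by targeting of Ring1B, and the wild type line, which the labels give by citation alone, carries neither change. No second line of any genotype is described, so that every difference between the genotypes may also hold a difference between lines, and the p values measure the spread between arrays of a genotype. All cells were judged undifferentiated by colony shape before the RNA was taken. The labels describe neither the culture conditions nor any feeder cells.

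Eed is a core subunit of Polycomb repressive complex 2 (PRC2), in which Ezh2 or Ezh1 places methyl groups on lysine 27 of histone H3, Suz12 holds the complex together and Eed binds the trimethylated lysine and stimulates the enzyme. The mark is recognised by Cbx proteins of Polycomb repressive complex 1 (PRC1), whose catalytic subunit Ring1B (gene Rnf2) ubiquitinates histone H2A. In ES cells both complexes sit mostly on CpG-rich promoters of genes that direct later cell fates, which are thereby kept low while the cells remain pluripotent. ES cells without Eed lose this methylation and can still be propagated.

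Eed itself gave MAS5 signals, which are linear array intensities scaled to a common level, of 1547, 1248 and 1489 in wild type and 37.3, 25.05 and 51.1 in Eed deficient cells for replicates 1 to 3. All 3 mutant arrays lay far below the wild type arrays, and the log2 change was -5.10 (SE 0.24, adjusted p = 2.5e-08). Here and below, a log2 change is the Eed deficient mean minus the wild type mean of log2(signal + 5), each group with n = 3. A gene is said to rise or fall where the limma model gave an adjusted p under 0.05 over all genes. Which part of the gene was deleted is not stated by the labels, and a second, dim Eed probe set stayed near the bottom of the scale in all 4 genotypes. The median signal of the 6 arrays ran from 19.1 to 22.8, and 23.1% to 24.1% of probe sets lay above a signal of 100.

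More genes rose than fell. Of the 13984 genes, 1509 rose (10.8%) and 637 fell (4.56%), and changes of at least 2-fold were found for 767 genes upward (5.48%) and 130 downward (0.93%). The size of a change depends on the value added before taking logarithms, and with 32 in place of 5 there were 277 and 54 such genes. Rises thus made up 70.3% of all calls, a share that was 55.5% when each array was centred on its median, with 1194 rises and 959 falls. Of the probe sets that the annotation leaves without a gene, 126 of 4105 rose (3.07%) and 73 fell (1.78%). Risen genes started low: the median wild type signal was 44.6 for risen genes, 292 for fallen genes and 83.01 for all genes tested. Of the risen genes, 426 (28.2%) had a wild type mean under 20, compared with 18.8% of all genes tested. Only 20 of them went from a mean under 20 to a mean over 100. Of the fallen genes, 79.6% had a wild type mean over 100, compared with 45.9% of all genes tested. These contrasts in starting level are partly built in. The filter asked for any 3 of the 12 arrays, so a gene low in wild type could be tested through mutant arrays alone. A gene at the bottom of the scale in wild type can hardly be called as a fall. Genes whose 3 Eed deficient arrays all lay above the wild type arrays made up 18.6% of those tested, and genes with all 3 below made up 11.8%.

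**Figure D1:**
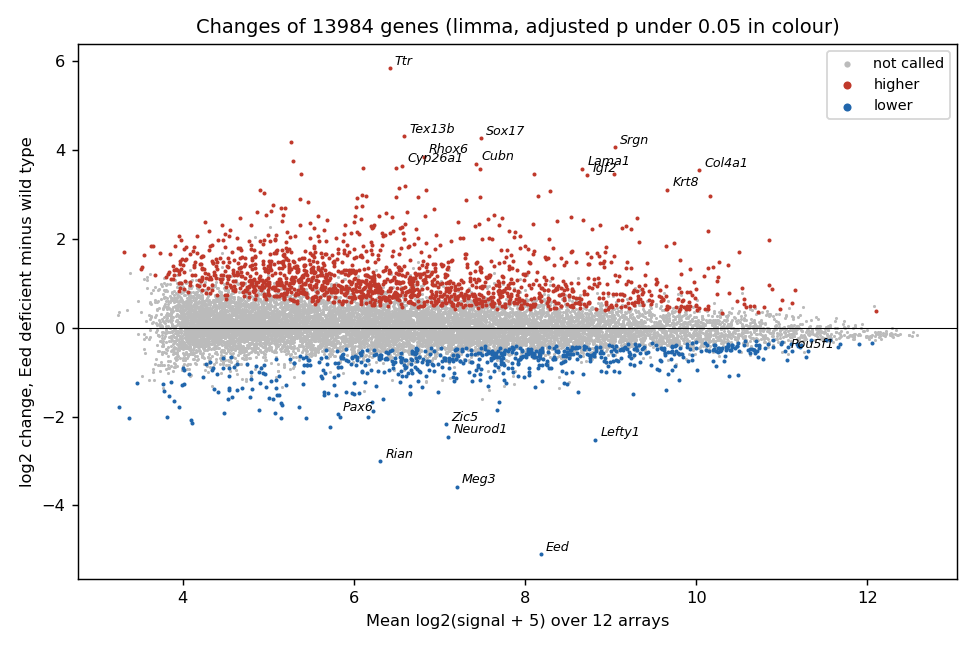
Change of every gene tested (vertical axis, log2 change of Eed deficient minus wild type) against its mean level over 12 arrays (horizontal axis, mean log2(signal + 5)). Red points are the 1509 genes called higher, blue points the 637 called lower and grey points those not called, and the largest rise is 5.84 (Ttr) while the largest fall after Eed is -3.58 (Meg3).

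Promoters of 6 genes among those with the largest changes are shown as RefSeq windows of 300 bases in GRCm38.p6, from 250 bases before to 50 bases after the start site, 5′ to 3′ on the gene's strand. They carry the contrast in CpG content that the risen genes span, and they are referred to below. Col4a1 (chr8:11312777-11313076, minus strand) and Col4a2 (chr8:11312555-11312854, plus strand) encode the type IV collagen chains of basement membranes, lie head to head, and their windows share 78 bases. They hold 37 and 33 CG dinucleotides, drawn in capitals.
Col4a1: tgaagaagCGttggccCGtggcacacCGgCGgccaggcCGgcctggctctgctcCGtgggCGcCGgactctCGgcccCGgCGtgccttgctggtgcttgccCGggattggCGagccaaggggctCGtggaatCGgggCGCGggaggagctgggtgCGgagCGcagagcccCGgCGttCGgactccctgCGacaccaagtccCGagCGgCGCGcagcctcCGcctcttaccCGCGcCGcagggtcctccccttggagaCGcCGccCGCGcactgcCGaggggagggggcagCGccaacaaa
Col4a2: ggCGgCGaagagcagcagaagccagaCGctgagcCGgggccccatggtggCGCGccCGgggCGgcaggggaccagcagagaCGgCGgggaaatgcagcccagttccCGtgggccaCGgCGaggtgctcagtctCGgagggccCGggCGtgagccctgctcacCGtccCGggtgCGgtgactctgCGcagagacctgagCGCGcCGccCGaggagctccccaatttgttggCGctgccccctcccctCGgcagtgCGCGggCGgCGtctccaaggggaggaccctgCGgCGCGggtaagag
Cyp26a1, which breaks down retinoic acid (chr19:37697558-37697857, plus strand), holds 26 CG dinucleotides. Capitals here mark instead the 1 match to the motif AGTTCA, any 5 bases, AGTTCA, a direct repeat of the kind bound by retinoic acid receptors, which was searched on both strands and is read here on the opposite strand. It is held by 8 of 32851 windows (0.0244%).
Cyp26a1: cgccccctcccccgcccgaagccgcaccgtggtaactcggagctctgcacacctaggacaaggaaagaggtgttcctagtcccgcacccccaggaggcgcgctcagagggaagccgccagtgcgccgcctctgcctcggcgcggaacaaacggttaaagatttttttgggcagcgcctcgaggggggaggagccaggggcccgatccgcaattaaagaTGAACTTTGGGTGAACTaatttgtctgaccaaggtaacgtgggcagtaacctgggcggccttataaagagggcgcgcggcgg
Tex13b, a gene of the testis-expressed Tex13 family (chrX:140813384-140813683, minus strand), holds 13 CG dinucleotides and Cubn, the endocytic receptor cubilin (chr2:13491827-13492126, minus strand), holds 5, again in capitals.
Tex13b: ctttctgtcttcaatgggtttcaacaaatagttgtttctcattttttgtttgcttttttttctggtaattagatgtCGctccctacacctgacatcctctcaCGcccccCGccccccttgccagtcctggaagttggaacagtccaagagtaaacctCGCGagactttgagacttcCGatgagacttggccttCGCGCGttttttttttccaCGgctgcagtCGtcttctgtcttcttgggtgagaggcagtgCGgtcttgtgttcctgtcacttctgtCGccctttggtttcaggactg
Cubn: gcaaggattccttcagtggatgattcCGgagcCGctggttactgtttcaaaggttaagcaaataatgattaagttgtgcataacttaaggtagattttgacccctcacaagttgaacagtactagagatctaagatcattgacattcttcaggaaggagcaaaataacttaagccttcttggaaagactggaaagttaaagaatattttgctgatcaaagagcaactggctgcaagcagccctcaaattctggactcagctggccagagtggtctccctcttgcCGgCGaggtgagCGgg
Neurod1, a neuronal transcription factor gene and 1 of the largest falls (chr2:79456587-79456886, minus strand), holds 26.
Neurod1: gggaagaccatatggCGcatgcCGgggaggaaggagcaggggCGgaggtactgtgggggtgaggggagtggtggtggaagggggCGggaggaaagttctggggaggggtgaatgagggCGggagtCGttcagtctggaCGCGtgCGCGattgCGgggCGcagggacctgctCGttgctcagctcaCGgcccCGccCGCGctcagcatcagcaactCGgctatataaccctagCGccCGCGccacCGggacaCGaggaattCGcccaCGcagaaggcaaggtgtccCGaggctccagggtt

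Of all 32851 windows, 5.58% held at least as many CG dinucleotides as that of Col4a1, 16.9% at least as many as those of Cyp26a1 and Neurod1, 37.9% at least as many as that of Tex13b and 62.0% at least as many as that of Cubn. The promoters shown of genes with large rises thus included both CG-rich and CG-poor ones. Over the 11207 genes tested that matched a window, the median was 17 CG dinucleotides for genes that rose at least 2-fold, 22 for smaller rises, 10 for falls of at least 2-fold, 21 for smaller falls and 20 for genes not called. Among genes at or below the median level, which hold most of the large rises, the medians were 17 for rises of at least 2-fold, 22 for smaller rises, 7 for falls of at least 2-fold and 15 for genes not called. Above the median level the order of large rises and uncalled genes was the reverse. The medians there were 18 for rises of at least 2-fold, 22 for smaller rises, 17 for falls of at least 2-fold and 22.5 for genes not called. These medians are a description, and no difference between them was tested.

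Endoderm genes rose. Of 15 transcription factor genes of endoderm that were tested, 10 rose and 0 fell, with a median log2 change of 1.20 against 0.03 for all genes. With added values of 1 and 32 the median of these endoderm genes was 1.81 and 0.69. Counts in this and every later list stand beside 10.8% of all genes that rose and 4.56% that fell. A few calls in a short list can lie near those shares. The lists and their members were chosen with earlier results of these data known, so their counts and medians are a description and not a test. In every list, genes low in wild type could pass the filter through mutant arrays alone, which favours rises. Sox17, a factor that starts and maintains endoderm, gave 10.2, 16.7 and 15.4 in wild type and 373, 320.4 and 380.4 in Eed deficient cells. Every mutant array lay far above every wild type array, and the log2 change was 4.26 (SE 0.18, adjusted p = 1.7e-08). Gata6 and Gata4, the zinc finger factors of primitive endoderm, gave 17.8, 24.6 and 25.3 in wild type and 178, 131 and 150.1 in Eed deficient cells, and 15.4, 24.5 and 20.3 in wild type and 78.7, 88.9 and 66.8 in Eed deficient cells, respectively. Neither gene's arrays overlapped between the genotypes, with log2 changes of 2.52 (SE 0.18, adjusted p = 1.4e-06) and 1.74 (SE 0.18, adjusted p = 3.8e-05). Foxa2, a forkhead factor of definitive and visceral endoderm, gave 11.2, 7.95 and 6.66 in wild type and 69.3, 68.02 and 78.4 in Eed deficient cells, a log2 change of 2.51 (SE 0.19, adjusted p = 2e-06). Sox7 and Lhx1 rose as well, by 2.25 and 2.06 on the log2 scale, and Lhx1 remained low with 18.8, 22.03 and 24.4 in the mutant. In this and every later group, a rise in part of the cells and a rise in each cell cannot be told apart in bulk RNA.

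**Figure D2:**
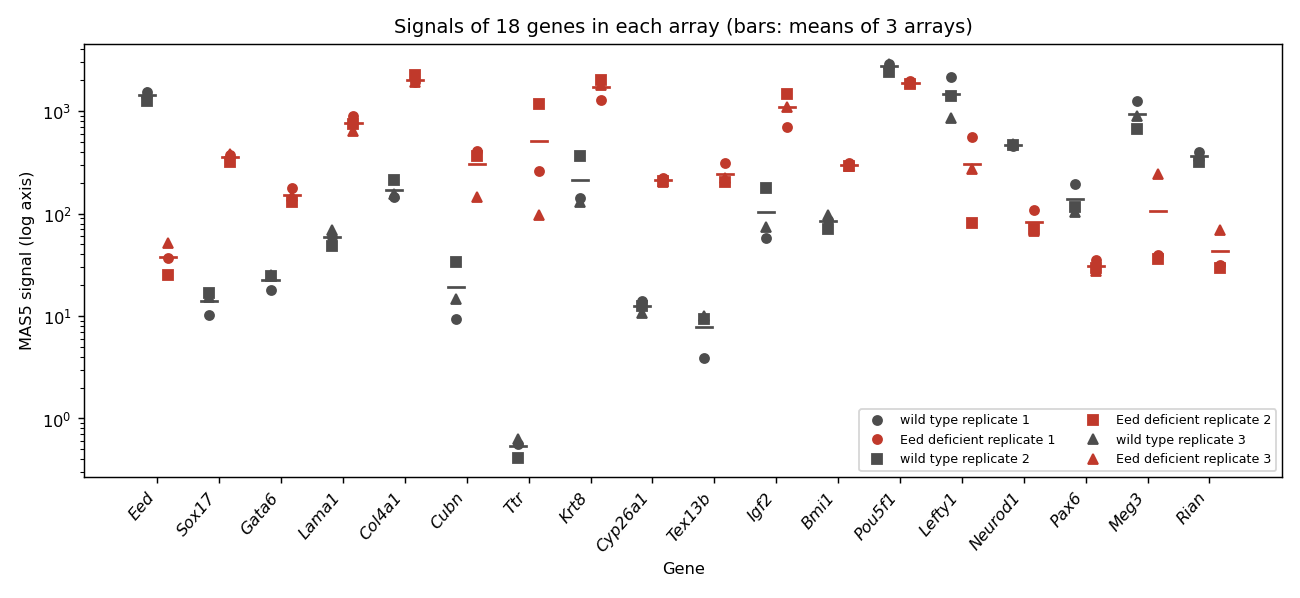
MAS5 signals (logarithmic vertical axis) of 18 genes in each of the 3 wild type (grey) and 3 Eed deficient (red) arrays, with a symbol for each replicate number and bars at the means. The arrays of the 2 genotypes do not overlap for any of these genes, and the mutant arrays spread most for Ttr, Lefty1 and Meg3.

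Basement membrane genes, whose products parietal and visceral endoderm lay down in quantity, rose in number as well. Of 20 tested, 12 rose and 1, Col18a1, fell, with a median log2 change of 0.92. Lama1, the laminin alpha chain of the earliest basement membranes, gave 58.8, 48.5 and 68.6 in wild type and 902, 741 and 634 in Eed deficient cells, and its arrays were separated by a wide gap, with a log2 change of 3.58 (SE 0.16, adjusted p = 2.5e-08). Its partner chains in laminin-111, Lamb1 and Lamc1, named here outside the naming rule, rose by 1.91 and 1.37. Col4a1 gave 146, 211 and 155 in wild type and 1908, 2273 and 1909 in Eed deficient cells, and Col4a2, transcribed from the overlapping promoter shown above, gave 75.2, 98.2 and 80.2 in wild type and 876, 1173 and 905 in Eed deficient cells. Every mutant array lay far above every wild type array for both genes, with log2 changes of 3.55 (SE 0.17, adjusted p = 2.5e-08) and 3.46 (SE 0.21, adjusted p = 2.6e-07). Serpinh1, the chaperone of collagen folding, averaged 380.3 ± 176 in wild type and 1643 ± 262 in mutant cells (mean ± SD, n = 3, as for all means given below), and its log2 change was 2.18 (SE 0.27, adjusted p = 0.00014). Sparc, a collagen-binding matrix protein, averaged 689 ± 116 and 2735 ± 490.0 (log2 change 1.98, SE 0.18, adjusted p = 7.8e-06).

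Visceral endoderm takes up nutrients and secretes carrier proteins, and genes of both kinds rose. Of 18 tested, 12 rose and 0 fell, with a median log2 change of 2.16. Without Eed deficient replicate 2 the median was 1.39 and 10 rose, and with an added value of 32 the median was 1.37 and 12 rose. Among the 6 uptake receptors and adaptors, 5 rose. Cubn, whose CG-poor promoter is shown above, gave 9.28, 33.7 and 14.6 in wild type and 406, 367 and 146 in Eed deficient cells, and Dab2, the endocytic adaptor, gave 39.7, 52.96 and 29.8 in wild type and 625, 712 and 264 in Eed deficient cells. Replicate 3 was the lowest mutant array for both genes and still lay above all wild type arrays, and the log2 changes were 3.69 (SE 0.37, adjusted p = 2.5e-05) and 3.46 (SE 0.32, adjusted p = 1.2e-05). Ttr, the thyroid hormone carrier transthyretin, gave 0.563, 0.414 and 0.637 in wild type and 261, 1179 and 96.3 in Eed deficient cells. The wild type signals lay at the bottom of the scale and the mutant signals ran from low to very high, with a log2 change of 5.84 (SE 0.81, adjusted p = 0.00033). Afp, alpha-fetoprotein, had the same spread, with 89.1, 706 and 28.6 in the mutant against 2.22, 2.53 and 2.00 in wild type (log2 change 4.18, SE 0.92, adjusted p = 0.0081). For all 10 secreted carriers tested, replicate 2 was the highest Eed deficient array, as it was for 4984 of all 13984 genes. The medians of the carriers' log2 values minus the wild type mean were 1.88, 3.62 and 0.62 in replicates 1, 2 and 3. Of these 10 carriers, 5 rose with all arrays and 7 without replicate 3. S100g, a calcium-binding protein of absorptive epithelia, gave 0.508, 0.441 and 0.453 in wild type and 37.7, 95.6 and 87.9 in Eed deficient cells, a log2 change of 3.75 (SE 0.34, adjusted p = 8.7e-06).

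Genes of simple epithelia also rose. Of 18 keratin, junction and adhesion genes tested, 12 rose and 0 fell (median log2 change 1.41). Krt8 and Krt18, the paired keratins of the first embryonic epithelia, gave 142, 367 and 131 in wild type and 1276, 2029 and 1811 in Eed deficient cells, and 191, 621 and 196 in wild type and 1486, 3418 and 2321 in Eed deficient cells, respectively. Wild type replicate 2 was the highest wild type array for both keratins and still lay below every mutant array, with log2 changes of 3.11 (SE 0.34, adjusted p = 4.9e-05) and 2.97 (SE 0.46, adjusted p = 0.00073). Krt19 rose by 2.47 and the desmosomal cadherin Dsc2 by 2.12. Krt7 (log2 change 1.93, SE 0.59, adjusted p = 0.042) was called although its arrays overlapped, since wild type replicate 2 (81.5) exceeded Eed deficient replicate 1 (74.04). Its adjusted p was above 0.05 when the first or the third wild type array or the second or the third mutant array was left out, with values up to 0.16.

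Trophoblast genes rose in part. Of 13 tested, 7 rose and 0 fell (median log2 change 0.80), and of the 10 that are not on chromosome 6, described below, 5 rose. Cdx2, the factor that specifies trophectoderm, gave 3.98, 15.99 and 2.36 in wild type and 18.5, 31.6 and 38.7 in Eed deficient cells. The groups were separated, by a narrow margin between wild type replicate 2 and mutant replicate 1, and the log2 change was 1.59 (SE 0.34, adjusted p = 0.007). Plac1, a placental membrane protein, averaged 14.3 ± 1.72 in wild type and 55.6 ± 8.59 in mutant cells (log2 change 1.64, SE 0.21, adjusted p = 0.00016), and Esx1, a placental homeobox gene, with means of 35.7 ± 10.8 and 83.02 ± 12.4 (log2 change 1.14, SE 0.20, adjusted p = 0.0019). Hand1, a factor of trophoblast giant cells and heart, rose by 1.27 (SE 0.33, adjusted p = 0.021) with all arrays, and its adjusted p rose to 0.084 or 0.073 when the first or the third wild type array was left out and to 0.070 when the third mutant array was.

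Rhox genes form an X-linked homeobox cluster used in placenta and germ line. Of 14 listed, the annotation gives 4 a probe set of their own. All 4 passed the filter and 3 rose. Rhox6 gave 16.5, 27.1 and 22.5 in wild type and 277, 554 and 359.8 in Eed deficient cells, and Rhox9 gave 20.2, 26.00 and 20.9 in wild type and 134, 307 and 224 in Eed deficient cells. All mutant arrays lay above all wild type arrays, and the log2 changes were 3.85 (SE 0.36, adjusted p = 1.4e-05) and 2.98 (SE 0.35, adjusted p = 8.7e-05). Rhox5, already abundant in wild type cells at 607 ± 195, rose to 1697 ± 441 (log2 change 1.48, SE 0.23, adjusted p = 0.00072). Rhox13 had a log2 change of 0.55 (SE 0.23, adjusted p = 0.13).

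Hox genes, which set position along the body axis and are standard Polycomb targets, were described cluster by cluster. Of 26 tested among 39 listed, 19 rose and 0 fell, with a median log2 change of 1.54. The median was 0.66 with an added value of 32 (18 rises) and 0.98 with no filter on low signals (18 rises). All 7 Hoxc genes tested rose, as did 6 of 7 Hoxd genes, 3 of 6 Hoxb genes and 3 of 6 Hoxa genes, the last on chromosome 6. Hoxc4 gave 1.24, 0.988 and 2.70 in wild type and 68.8, 67.2 and 65.4 in Eed deficient cells, among the tightest replicates of any risen gene. Its log2 change was 3.45 (SE 0.17, adjusted p = 2.5e-08). Hoxa9 gave 1.49, 3.52 and 9.08 in wild type and 98.05, 99.9 and 124 in Eed deficient cells (log2 change 3.60, SE 0.24, adjusted p = 5.8e-07), and Hoxa10 gave 11.3, 5.90 and 7.97 in wild type and 71.02, 72.2 and 105 in Eed deficient cells (log2 change 2.71, SE 0.20, adjusted p = 2e-06). Hoxd10 and Hoxc9 reached 41.6, 34.1 and 40.95 and 42.1, 44.3 and 61.5, from wild type means of 2.69 ± 4.03 and 4.32 ± 0.706. No Hox gene named here had a mutant signal above 124.

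Outside the Hox clusters, 59 of 83 homeobox genes on the array passed the filter, of which 19 rose and 1 fell (median log2 change 0.57). Genes low in wild type could pass through mutant arrays alone, so the share of rises and the median are partly built in. Those named had low signals, such as Vax2 (on chromosome 6), a gene of the ventral eye, with means of 3.16 ± 0.166 and 36.9 ± 14.4 (log2 change 2.31, SE 0.34, adjusted p = 0.0006), Hmx1 with means of 1.68 ± 1.09 and 25.4 ± 3.21 (log2 change 2.19, SE 0.24, adjusted p = 4.9e-05) and Msx2, a target of BMP signalling, with means of 10.3 ± 7.67 and 56.01 ± 16.5 (log2 change 2.07, SE 0.29, adjusted p = 0.0004). The LIM homeobox gene Lhx2 rose by 1.94. The 1 that fell was Pax6, a regulator of eye and neural tube, which gave 196, 116 and 104 in wild type and 35.4, 29.6 and 27.7 in Eed deficient cells. Each mutant array lay below each wild type array by more than 2-fold, and the log2 change was -1.95 (SE 0.23, adjusted p = 9.5e-05).

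Mesoderm and heart regulators rose in part. Of 21 tested, 9 rose and 0 fell (median log2 change 0.70), and T-box genes had the largest changes. Tbx20, a heart factor, gave 6.22, 8.67 and 2.73 in wild type and 55.98, 92.2 and 65.8 in Eed deficient cells (log2 change 2.82, SE 0.23, adjusted p = 4.3e-06). Tbx15, a gene of trunk mesoderm, averaged 4.37 ± 5.43 in wild type and 58.6 ± 13.1 in mutant cells (log2 change 2.89, SE 0.31, adjusted p = 4.2e-05), and Tbx1, of the pharynx and outflow tract, with means of 3.70 ± 1.86 and 28.9 ± 6.37 (log2 change 1.97, SE 0.30, adjusted p = 0.00071). Hand2, needed for the right ventricle, reached 25.8, 16.6 and 24.4 in the mutant, from 1.81, 1.21 and 5.20 (log2 change 1.84, SE 0.24, adjusted p = 0.00024). Among 15 blood and endothelial genes, 3 rose (Flt1, Cd34 and Tal1) and 4 fell (Sox18, Pecam1, Eng and Tek), counts that moved to 1 and 2 when single arrays were left out (1 rise without the second wild type or first mutant array, 2 falls without any 1 of the wild type arrays or the third mutant array). Flt1, a receptor for vascular endothelial growth factor, rose, with means of 26.01 ± 5.87 and 93.3 ± 21.9 (log2 change 1.66, SE 0.20, adjusted p = 0.00012), while Sox18, a factor of lymphatic endothelium, averaged 21.6 ± 8.55 in wild type and 4.67 ± 0.161 in mutant cells (log2 change -1.42, SE 0.35, adjusted p = 0.015, adjusted p = 0.073 without wild type replicate 1).

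Neural genes rose no more often than all genes, of which 10.8% rose and 4.56% fell. Of 23 neural regulators tested, 2 rose (Zic1 and Neurog3) and 4 fell (Neurod1, Zic5, Zic2 and Stmn2), with a median log2 change of 0.01 that was -0.08 under quantile normalization and under median centring. Neurod1, whose CG-rich promoter is shown above, gave 459.8, 469 and 474 in wild type and 108, 71.4 and 68.4 in Eed deficient cells. The wild type arrays were nearly equal and the mutant arrays all lay far below them, with a log2 change of -2.46 (SE 0.19, adjusted p = 2.4e-06). Zic5, a zinc finger factor of the neural plate, gave 610.0, 247 and 289.7 in wild type and 104, 54.5 and 71.2 in Eed deficient cells and fell by 2.18 on the log2 scale (SE 0.33, adjusted p = 0.00064). Zic1, of the same family, went the other way, with 10.8, 10.4 and 8.16 in wild type and 73.7, 57.2 and 67.6 in Eed deficient cells and a log2 change of 2.27 (SE 0.17, adjusted p = 2e-06). Zic2 (log2 change -1.03, SE 0.33, adjusted p = 0.049) lost its call when any single array but wild type replicate 3 was left out, with adjusted p up to 0.19. Sox1, a neuroectoderm factor, was not called (log2 change -0.96, SE 0.38, adjusted p = 0.11). The number of rises was 1 without any 1 array but wild type replicate 2, and the number of falls was 2 without wild type replicate 1 or 2.

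**Figure D3:**
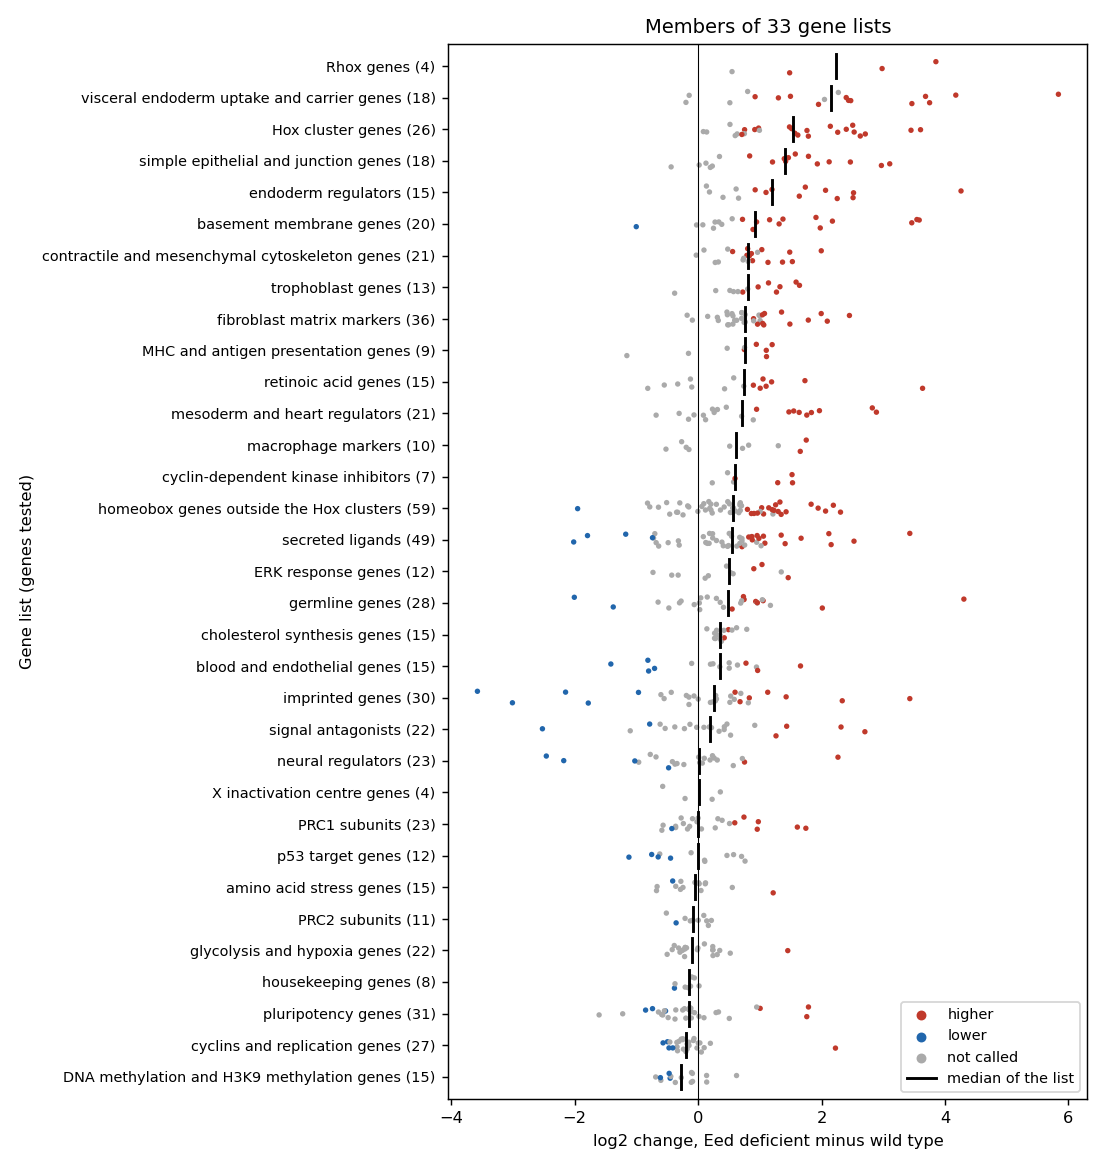
Log2 change of Eed deficient minus wild type (horizontal axis) for each tested member of 33 gene lists (rows, with the number of genes tested), red where called higher, blue where called lower and grey where not called, with a black bar at the list's median. Rhox, visceral endoderm, Hox and epithelial genes sit furthest to the right, and DNA and H3K9 methylation genes furthest to the left.

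Across the 17 lists with 0 falls by the limma test, which hold 265 tested genes, 4 genes were lower at an unadjusted p under 0.05. Across the 5 lists with 0 rises, which hold 50, 3 genes were higher at that level. Over all 13984 genes, 1542 were lower and 2573 higher at that level by the same test. These lists were picked for having 0 calls in the direction counted, so low counts were partly built in.

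Signalling genes moved in both directions. Of 49 secreted ligand genes tested, 15 rose and 4 fell (median log2 change 0.54). Igf2, an imprinted growth factor, gave 57.7, 179 and 74.2 in wild type and 694, 1474 and 1101 in Eed deficient cells, and replicate 2 was the highest array of both genotypes. Its log2 change was 3.43 (SE 0.40, adjusted p = 8e-05). Bmp2 gave 7.12, 3.02 and 4.35 in wild type and 44.4, 59.7 and 49.3 in Eed deficient cells (log2 change 2.53, SE 0.21, adjusted p = 4.3e-06), and Wnt4 gave 16.8, 32.7 and 11.8 in wild type and 69.96, 161 and 85.5 in Eed deficient cells (log2 change 2.12, SE 0.44, adjusted p = 0.0053). Of the 12 Wnt genes tested 3 rose, Wnt4, Wnt11 and Wnt7b, and of 15 BMP and TGF-beta genes 6 rose and Gdf3 fell (-0.74). Of the 11 FGF genes tested, 3 rose (Fgf3, Fgf10 and Fgf13) and 3 fell (Fgf17, Fgf18 and Fgf1), and Fgf17 averaged 175 ± 59.5 in wild type and 38.6 ± 10.99 in mutant cells (log2 change -2.02, SE 0.29, adjusted p = 0.0005). Of 22 antagonists, 4 rose (Frzb, Dkk1, Dusp4 and Fstl3) and 2 fell (Lefty1 and Spred2), the falls being 0 or 1 when some single arrays were left out. The Wnt antagonists Dkk1 and Frzb rose, with 13.1, 11.1 and 8.58 in wild type and 68.03, 83.03 and 71.2 in Eed deficient cells for Dkk1 (log2 change 2.32, SE 0.23, adjusted p = 2e-05) and a log2 change of 2.70 (SE 0.43, adjusted p = 0.001) for Frzb. Lefty1, an antagonist and target of Nodal, gave 2131, 1396 and 861 in wild type and 561, 81.3 and 274 in Eed deficient cells. The genotypes did not overlap, yet the mutant arrays spread widely. Its log2 change was -2.52 (SE 0.61, adjusted p = 0.013), and its adjusted p was 0.052 without wild type replicate 1.

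Retinoic acid genes included 1 of the largest rises. Of 15 tested, 7 rose and 0 fell (median log2 change 0.74). Cyp26a1, with the receptor-type repeat in its promoter, gave 14.04, 12.6 and 10.7 in wild type and 225, 209 and 202 in Eed deficient cells. Both groups were tight and far apart, and the log2 change was 3.64 (SE 0.16, adjusted p = 1.7e-08). Stra6, the retinol uptake receptor, averaged 11.3 ± 9.99 in wild type and 43.8 ± 9.75 in mutant cells (log2 change 1.73, SE 0.32, adjusted p = 0.0029), and the binding proteins Crabp1 and Crabp2 rose by 1.19 and 1.05. Aldh1a2, which makes retinoic acid, reached 16.9 ± 2.68 from 5.72 ± 4.38 (log2 change 1.10, SE 0.28, adjusted p = 0.016), with adjusted p values of 0.055 and 0.053 when the first and second wild type arrays were left out, and 0.064 when the third mutant array was.

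Imprinted genes, which are expressed from 1 parental copy, included the largest falls after Eed. Of 30 tested, 7 rose and 5 fell (median log2 change 0.26), the falls being Meg3, Rian, Nnat, Mirg and Impact. Meg3, Rian and Mirg are non-coding transcripts of the maternal copy of the Dlk1-Dio3 region of chromosome 12, and all 3 fell. Meg3 gave 1265, 675 and 894 in wild type and 39.9, 35.7 and 244 in Eed deficient cells. Mutant replicate 3 was well above the other mutant arrays and still below wild type, and the log2 change of -3.58 (SE 0.50, adjusted p = 0.00036) was -4.43 without that array. Rian gave 399, 316 and 369 in wild type and 31.5, 29.5 and 68.7 in Eed deficient cells (log2 change -3.01, SE 0.25, adjusted p = 5e-06) and Mirg gave 137, 78.5 and 70.7 in wild type and 22.3, 18.8 and 29.00 in Eed deficient cells (log2 change -1.78, SE 0.27, adjusted p = 0.00066). Dlk1, the paternally expressed gene of the region, was named outside the naming rule and had a log2 change of 0.69 (SE 0.36, adjusted p = 0.22). Plagl1, a paternally expressed zinc finger gene, gave 94.9, 88.98 and 90.98 in wild type and 385, 554 and 527 in Eed deficient cells and rose by 2.34 (SE 0.18, adjusted p = 2.2e-06), while Nnat, also paternally expressed, averaged 36.4 ± 7.26 in wild type and 4.88 ± 4.35 in mutant cells (log2 change -2.15, SE 0.36, adjusted p = 0.0014). Peg3, Airn and Igf2r, outside the naming rule, rose by 1.43, 1.13 and 0.83, and Airn had an adjusted p of 0.050 and 0.056 without Eed deficient replicate 2 and replicate 3, so that it lost its call in both.

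The Polycomb genes themselves were partly changed. Of 11 PRC2 subunit genes other than Eed, 0 rose and 1 fell by the limma test. Ezh2 (on chromosome 6) gave 1412, 1087 and 1514 in wild type and 1624, 1445 and 1398 in Eed deficient cells and Suz12 gave 682, 717 and 796 in wild type and 715, 616 and 566 in Eed deficient cells. Both sets of arrays overlapped, with log2 changes of 0.17 (SE 0.13, adjusted p = 0.44) and -0.21 (SE 0.13, adjusted p = 0.29). The fall was that of Rbbp4, a histone-binding subunit shared with other complexes (log2 change -0.36, SE 0.09, adjusted p = 0.014), which had an adjusted p of 0.063 without Eed deficient replicate 3. Of 23 PRC1 genes, 6 rose and 1, Mga, fell (-0.43, a fall that was lost without any 1 array but wild type replicate 2). Bmi1, the Pcgf subunit that also represses the Ink4a locus, gave 87.5, 71.2 and 97.5 in wild type and 311, 289 and 288 in Eed deficient cells. The mutant arrays were nearly equal and all lay above wild type, with a log2 change of 1.75 (SE 0.14, adjusted p = 3.7e-06). Pcgf5, a subunit of variant PRC1, gave 178, 221 and 323 in wild type and 617, 860.3 and 706 in Eed deficient cells (log2 change 1.61, SE 0.21, adjusted p = 0.00022). Cbx8 and Phc2 rose by 0.96 and 0.98, while Rnf2 and its paralogue Ring1 were not called (-0.14 and -0.02, adjusted p = 0.63 and 0.96).

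Pluripotency genes remained abundant. Of 31 tested, 3 rose (Cldn6, Tbx3 and Tfcp2l1) and 3 fell (Fbxo15, Gdf3 and Pou5f1), with a median log2 change of -0.15. The 8 core factors all had negative log2 changes, from -0.59 to -0.12 (median -0.37). Of the 31 genes, 8 had all mutant arrays below wild type and 5 had all above, against 11.8% and 18.6% of all genes. Pou5f1 (Oct4) gave 2904, 2396 and 2906 in wild type and 1949, 1837 and 1877 in Eed deficient cells. The mutant arrays all lay below the wild type arrays, by less than 2-fold, and the log2 change was -0.53 (SE 0.11, adjusted p = 0.006). Nanog (on chromosome 6) gave 1555, 2063 and 2174 in wild type and 1692, 1788 and 1706 in Eed deficient cells and Sox2 gave 2795, 2890.3 and 2941 in wild type and 2672, 1326 and 1955 in Eed deficient cells, and neither was called, with log2 changes of -0.14 (SE 0.13, adjusted p = 0.49) and -0.59 (SE 0.21, adjusted p = 0.079). Zfp42 (Rex1) gave 2988, 2195 and 2798 in wild type and 3063, 1955 and 2711 in Eed deficient cells, the 2 groups overlapping. Zfp42, Dppa5a, Tdgf1, Utf1 and Esrrb, markers of the undifferentiated state named outside the naming rule, had log2 changes of -0.06, -0.11, -0.14, -0.38 and 0.01, none called. Tbx3 and Tfcp2l1, factors of the naive state, rose to 342 ± 122 from 103 ± 57.9 (log2 change 1.76, SE 0.36, adjusted p = 0.0055) and to 312 ± 42.9 from 153 ± 18.2 (log2 change 1.00, SE 0.19, adjusted p = 0.0034). Nr0b1 and Klf2, also naive factors, were not called, with 521, 213 and 391 in wild type and 205, 41.5 and 160.2 in Eed deficient cells for Nr0b1 and log2 changes of -1.61 (SE 0.60, adjusted p = 0.088) and -1.22 (SE 0.52, adjusted p = 0.13). Replicate 2 was the lowest array of both genotypes for these 2 genes. The number of falls was 6 when Eed deficient replicate 1 was left out.

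Germline genes rose in a few cases. Of 28 tested, 8 rose and 2 fell (median log2 change 0.48), and the number of rises was 5 without wild type replicate 1 and 4 without Eed deficient replicate 2, with a median of 0.27 in both cases. Tex13b, second among the 15 largest rises, gave 3.88, 9.42 and 9.95 in wild type and 309, 201 and 224 in Eed deficient cells. All mutant arrays lay far above all wild type arrays, and the log2 change was 4.31 (SE 0.21, adjusted p = 2.5e-08). Tex15, a meiosis gene, gave 26.9, 44.3 and 47.7 in wild type and 112, 162 and 273 in Eed deficient cells (log2 change 2.01, SE 0.42, adjusted p = 0.0054). Hormad1, a protein of the meiotic chromosome axis, and Piwil4, of the piRNA pathway, both fell, with means of 169.6 ± 56.6 and 37.1 ± 7.23 (log2 change -2.01, SE 0.33, adjusted p = 0.0012) and with means of 58.4 ± 21.6 and 18.6 ± 3.29 (log2 change -1.38, SE 0.24, adjusted p = 0.002).

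Cell cycle inhibitors rose while replication genes fell in a few cases. Of 7 cyclin-dependent kinase inhibitor genes, 4 rose. Cdkn2a, the Ink4a/Arf gene, gave 12.5, 10.7 and 24.9 in wild type and 43.8, 53.4 and 62.9 in Eed deficient cells (log2 change 1.52, SE 0.24, adjusted p = 0.00093), and its neighbour Cdkn2b gave 53.1, 75.9 and 80.3 in wild type and 96.9, 226 and 404 in Eed deficient cells (log2 change 1.53, SE 0.35, adjusted p = 0.01). Replicate 3 was the highest mutant array for both. Cdkn2c rose by 1.29, and Cdkn1c by 0.60 (SE 0.18, adjusted p = 0.042), whose adjusted p was above 0.05 when the second or the third wild type array or the first or second mutant array was left out, at up to 0.14. Of 27 cyclin and replication genes, 1 rose and 4 fell. The rise was Ccnd2 (on chromosome 6), a cyclin of G1, with 314, 105 and 188 in wild type and 785, 807 and 1077 in Eed deficient cells (log2 change 2.23, SE 0.30, adjusted p = 0.00025). The falls were Mcm3, Cdt1, Rpa1 and Cdc6, with log2 changes of -0.47, -0.50, -0.57 and -0.41, and the number of falls was 0 or 1 when the first or the third wild type array or the second or the third mutant array was left out. Of the 21 replication genes among them, 11 had all mutant arrays below wild type and 0 had all above, against 11.8% and 18.6% of all genes. The median log2 change of these 21 was -0.24.

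Each list of chromatin, stress, metabolic and other general functions had between 0 and 5 calls. DNA and H3K9 methylation genes (15 tested) had 0 rises and 3 falls, those of Cbx1, Cbx5 and Suv39h2, with Cbx1 (log2 change -0.61, SE 0.15, adjusted p = 0.012, adjusted p = 0.059 without wild type replicate 3), a reader of methylated H3K9, and 1 gene fell when the third array of either genotype was left out. Of 12 p53 target genes 0 rose and 4 fell, Bbc3, Trp53inp1, Zmat3 and Mdm2, of which the pro-apoptotic Bbc3 (Puma) gave 231, 244 and 228 in wild type and 113, 119.9 and 85.00 in Eed deficient cells (log2 change -1.12, SE 0.18, adjusted p = 0.00097), and 1 or 2 falls were called when the second or the third wild type array or the first or the third mutant array was left out. Of 9 MHC and antigen presentation genes 5 rose, B2m, Psmb9, H2-Bl, H2-D1 (log2 change 1.11, SE 0.15, adjusted p = 0.0003) and H2-K1 (log2 change 0.94, SE 0.17, adjusted p = 0.002), and 3 rose when the first wild type array or the second or the third mutant array was left out. Of 12 genes that respond to ERK signalling 3 rose, the immediate early genes Fos (log2 change 1.03, SE 0.24, adjusted p = 0.011) and Jun (log2 change 0.90, SE 0.18, adjusted p = 0.0037) and the stress gene Ier3 (log2 change 1.46, SE 0.30, adjusted p = 0.0054). Of 22 glycolysis and hypoxia genes 1 rose, Ndrg1 (log2 change 1.45, SE 0.42, adjusted p = 0.031), which was not called when the first or second wild type array or the first mutant array was left out. Cholesterol synthesis genes (15 tested) had 2 rises, Fdps and Mvd (0.42 and 0.49), between 0 and 4 with single arrays left out. Of 15 amino acid stress genes, Atf3 rose (log2 change 1.22, SE 0.26, adjusted p = 0.0072) and Psat1 fell (log2 change -0.41, SE 0.12, adjusted p = 0.032), the latter not called when the first or the third wild type array or the second or the third mutant array was left out. None of the 4 X inactivation centre genes was called by limma, and Xist gave 175, 122 and 199 in wild type and 105, 75.7 and 154 in Eed deficient cells (log2 change -0.58, SE 0.28, adjusted p = 0.19). Of 8 housekeeping genes, Hprt fell (log2 change -0.38, SE 0.12, adjusted p = 0.045), a call that was lost without any 1 of the 6 arrays.

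Genes outside these lists were also among the 15 largest rises and 15 largest falls. Srgn, a proteoglycan of secretory granules, gave 39.7, 60.5 and 75.9 in wild type and 1026, 1114 and 952 in Eed deficient cells, and the log2 change was 4.06 (SE 0.19, adjusted p = 2.5e-08). Ctsh, a lysosomal protease, gave 16.8, 28.6 and 26.6 in wild type and 204, 619 and 290.1 in Eed deficient cells (log2 change 3.57, SE 0.37, adjusted p = 3.4e-05), and Hs3st1, a heparan sulfate sulfotransferase, gave 7.06, 7.02 and 12.5 in wild type and 134, 185 and 161 in Eed deficient cells (log2 change 3.58, SE 0.21, adjusted p = 2.1e-07). All 3 were raised in every mutant array. Among the falls, Ltb, a lymphotoxin subunit, gave 97.96, 95.9 and 88.6 in wild type and 18.9, 18.3 and 20.6 in Eed deficient cells (log2 change -2.03, SE 0.22, adjusted p = 4.2e-05). Dpys, an enzyme of pyrimidine breakdown, gave 338, 469.7 and 446 in wild type and 107, 139 and 89.9 in Eed deficient cells (log2 change -1.86, SE 0.19, adjusted p = 2.5e-05), and Slc27a2, a fatty acid transporter, gave 326, 140.4 and 126 in wild type and 64.1, 37.3 and 38.5 in Eed deficient cells (log2 change -1.88, SE 0.31, adjusted p = 0.0011). Every mutant array lay below every wild type array for these 3. Gna14, a G protein subunit, fell by 2.02 (SE 0.24, adjusted p = 0.00011). Lpar4, a lysophosphatidic acid receptor, had a log2 change of -2.24 (SE 0.57, adjusted p = 0.017), which was not called when the first wild type array (adjusted p = 0.072) or the second mutant array (0.064) was left out.

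Some of the calls named so far were lost when 1 of the 6 arrays was left out, all with changes of the same sign. Without wild type replicate 1, these were Aldh1a2, B2m, Cdt1, Col18a1, Fdps, Fgf3, Fstl3, Gdf3, H2-Bl, Hand1, Hprt, Krt7, Lefty1, Lpar4, Mcm3, Mga, Mvd, Ndrg1, Neurog3, Psat1, Rpa1, Sox18, Spred2, Stmn2, Suv39h2, Tek, Zic2 and Zmat3. Without wild type replicate 2, they were Aldh1a2, Cd34, Cdc6, Cdkn1c, Col18a1, Fgf10, Fgf13, Fstl3, H2-Bl, Hprt, Mdm2, Mvd, Ndrg1, Pecam1, Spred2, Stmn2, Suv39h2, Tal1, Tek, Trp53inp1 and Zic2. Without wild type replicate 3, they were B2m, Cbx1, Cdc6, Cdkn1c, Cdt1, Fdps, Hand1, Hprt, Krt7, Mcm3, Mdm2, Mga, Neurog3, Pecam1, Psat1, Rpa1, Spred2, Suv39h2, Tal1, Tek, Trp53inp1 and Zmat3. Without Eed deficient replicate 1, they were Cd34, Cdc6, Cdkn1c, Fgf10, Fgf13, Fgf3, Fstl3, Hprt, Mga, Mvd, Ndrg1, Neurog3, Suv39h2, Tal1, Tek, Trp53inp1, Zic2 and Zmat3. Without Eed deficient replicate 2, they were Airn, B2m, Cdc6, Cdkn1c, Cdt1, Col18a1, Fdps, Fgf10, Fstl3, Gdf3, H2-Bl, Hprt, Krt7, Lpar4, Mcm3, Mdm2, Mga, Mvd, Neurog3, Pecam1, Psat1, Rpa1, Spred2, Suv39h2, Wnt7b, Zic2 and Zmat3. Without Eed deficient replicate 3, they were Airn, Aldh1a2, B2m, Cbx5, Cdc6, Cdt1, Col18a1, Fdps, Fgf10, Fstl3, Gdf3, H2-Bl, Hand1, Hprt, Krt7, Mcm3, Mdm2, Mga, Mvd, Neurog3, Pecam1, Psat1, Rbbp4, Spred2, Stmn2, Suv39h2, Tal1, Tek, Trp53inp1, Zic2 and Zmat3. All other calls of genes named so far held with each of the 6 arrays left out.

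Fibroblast-type transcripts stood apart in Eed deficient replicate 3. Of 36 matrix and surface markers of fibroblasts tested, 12 rose and 0 fell with all arrays, and 6 rose without replicate 3 (Pdgfra, Timp3, Timp2, Cd44, Thy1 and Axl), where 7.27% of all genes were called higher. Without wild type replicate 1 the number was 7. The median of their log2 values minus the wild type mean was 0.34, 0.21 and 1.86 in Eed deficient replicates 1, 2 and 3. Replicate 3 was the highest mutant array for 33 of the 36, and for 3888 of all 13984 genes. In replicate 3, 22 of the 36 lay at least 2-fold above both other mutant arrays, and in none of the other 5 arrays did a marker stand so above the other arrays of its genotype. The summed signal of the 10 defining markers was 495, 493 and 599 in wild type and 763, 838 and 2212 in Eed deficient cells, none of the 10 at 0 on any array. Of these 10, 3 rose with all arrays and 1 without replicate 3. In the double deficient cells it was 1897, 2264 and 1814.

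Single markers showed the same spread. Col3a1, a fibrillar collagen, gave 56.8, 58.1 and 63.9 in wild type and 61.4, 42.6 and 261 in Eed deficient cells, and Postn, the matrix protein periostin, gave 38.7, 43.6 and 62.6 in wild type and 36.5, 48.7 and 309 in Eed deficient cells. Replicates 1 and 2 of the mutant lay within or below the wild type values and only replicate 3 was raised, so that neither gene was called, with log2 changes of 0.55 (SE 0.46, adjusted p = 0.48) and 0.76 (SE 0.55, adjusted p = 0.4). Dcn, Lum, Twist2 and Col1a1, outside the naming rule, reached 77.98, 38.7, 54.7 and 156 in replicate 3 against at most 20.8, 12.2, 8.37 and 56.6 in the other mutant arrays. Some markers were raised in all 3 mutant arrays: Pdgfra, a growth factor receptor also used by primitive endoderm, gave 8.55, 16.7 and 9.08 in wild type and 66.4, 90.1 and 94.6 in Eed deficient cells (log2 change 2.45, SE 0.27, adjusted p = 5.5e-05), and Timp3, a protease inhibitor, gave 47.6, 50.1 and 33.9 in wild type and 136, 211 and 282 in Eed deficient cells (log2 change 2.09, SE 0.26, adjusted p = 0.00012). Thy1, outside the naming rule, gave 92.1, 119 and 139 in wild type and 230.4, 272 and 434 in Eed deficient cells (log2 change 1.35, SE 0.21, adjusted p = 0.00079). Without replicate 3 the log2 changes of these 3 were 2.36, 1.85 and 1.09, all called. Cd44, a hyaluronan receptor, gave 84.6, 54.8 and 83.6 in wild type and 216, 205 and 643 in Eed deficient cells, a log2 change of 1.99 (SE 0.35, adjusted p = 0.002) that was 1.46 without replicate 3. Ccl2, Col1a2 and Pdgfrb, the last 2 outside the naming rule, were called with all arrays (0.024, 0.032 and 0.018 as adjusted p) and not without replicate 3 (0.11, 0.11 and 0.088), and the calls were also lost without wild type replicate 2 for Ccl2, without wild type replicate 1 for Pdgfrb and without any 1 of the wild type arrays for Col1a2.

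Most macrophage markers were highest in the same array, 7 of 10 in replicate 3 among the mutant arrays, with 2 in replicate 2 and 1 in replicate 1. Of all 13984 genes, 3888 were highest in replicate 3 among the mutant arrays, 4984 in replicate 2 and 5112 in replicate 1. Of the 10 macrophage markers tested among 15 listed, 2 rose with all arrays and 1 without replicate 3. The medians of their log2 values minus the wild type mean were -0.09, -0.31 and 1.74 in replicates 1, 2 and 3. The lysozymes Lyz1 and Lyz2 gave 31.7, 10.1 and 85.8 in wild type and 41.6, 20.2 and 631 in Eed deficient cells, and 31.01, 21.6 and 86.4 in wild type and 38.3, 25.6 and 357 in Eed deficient cells, respectively. Wild type replicate 3 was the second highest array for both, neither was called (1.30 and 0.82, adjusted p = 0.38 and 0.49), and without replicate 3 the log2 changes were -0.11 and -0.29. Csf1r, the macrophage growth factor receptor, was an exception, with 15.96, 36.4 and 18.6 in wild type and 54.8, 123 and 78.5 in Eed deficient cells (log2 change 1.65, SE 0.32, adjusted p = 0.0036). Cd14, the other call (log2 change 1.75, SE 0.41, adjusted p = 0.011), gave 2.88, 4.47 and 2.82 in wild type and 10.1, 31.7 and 35.2 in Eed deficient cells and had an adjusted p of 0.055 without replicate 3. The summed signal of the 10 tested markers was 325, 322 and 511 in wild type and 338, 437 and 1409 in Eed deficient cells. That sum was 475, 418 and 428 in Ring1B deficient cells and 866, 1315 and 1027 in double deficient cells. Whether other cells contributed to replicate 3 was not tested.

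**Figure D4:**
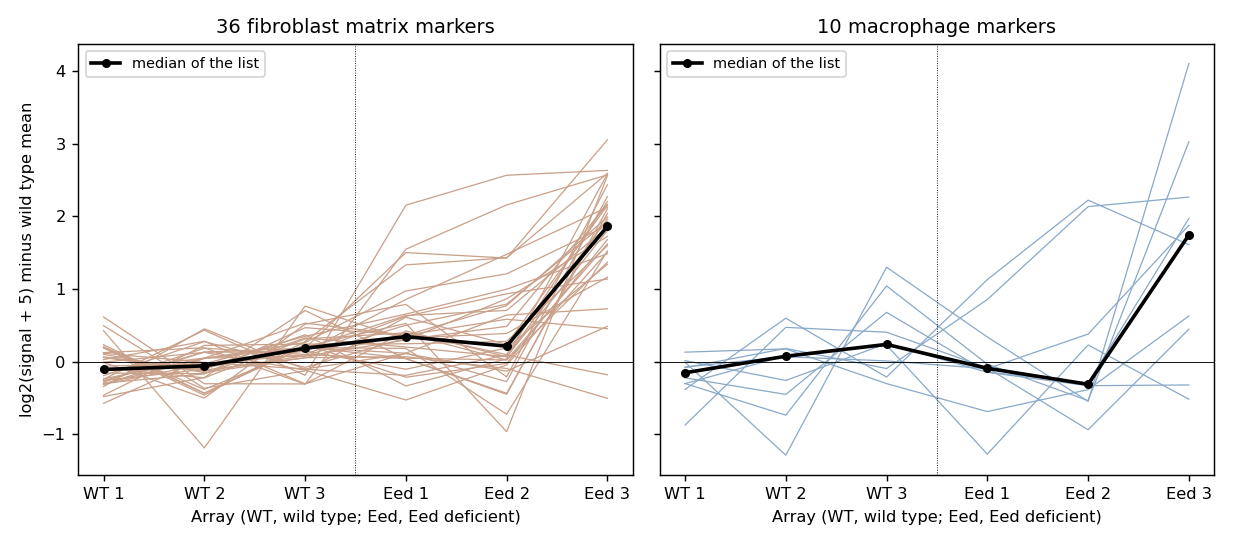
Log2(signal + 5) minus the wild type mean (vertical axis) for 36 fibroblast matrix markers (left) and 10 macrophage markers (right) in the 3 wild type (WT) and 3 Eed deficient (Eed) arrays, a thin line per gene and a thick black line for the median. In Eed deficient replicates 1, 2 and 3 the medians are 0.34, 0.21 and 1.86 for fibroblast markers and -0.09, -0.31 and 1.74 for macrophage markers.

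Contractile and cytoskeleton genes of mesenchymal cells, 21 in all, had 12 rises and 0 falls (median log2 change 0.81), and 8 rises without replicate 3 (median 0.61). Anxa3 and Anxa1, membrane-binding annexins, gave 94.9, 174 and 96.2 in wild type and 282, 659 and 598 in Eed deficient cells, and 394, 458 and 564 in wild type and 1085, 1117 and 2049.5 in Eed deficient cells, respectively. Both were raised in all 3 mutant arrays, with log2 changes of 2.00 (SE 0.33, adjusted p = 0.0012) and 1.53 (SE 0.20, adjusted p = 0.00025), and of 1.84 and 1.23 without replicate 3. For the endoderm and basement membrane lists the medians in the 3 mutant arrays were 1.53, 1.08 and 1.24, and 0.95, 0.99 and 0.82, and without replicate 3 these lists had 8 and 12 rises. Over all genes, 1017 rose and 334 fell (2.39%) without replicate 3.

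The 10 genes above a signal of 100 with the largest gap between replicate 3 and the higher of the other mutant arrays were Lyz1, Mgp, Lyz2, Postn, Meg3, Tm4sf1, Cdh11, Col3a1, Serpinf1 and Snai2. Mgp, a calcification inhibitor of cartilage and vessel wall, gave 88.4, 84.2 and 254 in wild type and 101, 117 and 1171 in Eed deficient cells, and Cdh11, a mesenchymal cadherin, gave 44.9, 26.4 and 43.9 in wild type and 56.2, 16.8 and 245 in Eed deficient cells. Only Meg3 of the 10 was called, as a fall. Each genotype had such gaps elsewhere: 98 genes lay at least 2-fold above both other mutant arrays in replicate 3, 116 in replicate 2 and 32 in replicate 1, and 93, 86 and 49 in wild type replicates 1, 2 and 3.

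Genes of chromosome 6 were higher in Eed deficient cells along most of the chromosome. Of its 689 genes, 198 rose (28.7%) and 7 fell (1.02%), and the median log2 change was 0.37. On the other 19 chromosomes the median lay between -0.15 and 0.10 and the share of risen genes between 5.85% and 16.4%. The shift was present in each mutant array, with chromosome 6 medians of 0.40, 0.36 and 0.35 above the wild type mean against -0.04, 0.05 and -0.01 for the wild type arrays. Of the chromosome 6 genes, 80.7% had a positive log2 change, compared with 52.0% of the other genes. In all 15 bins of 10 Mb the median was positive, and in the 13 bins with at least 20 genes it ran from 0.18 to 0.51. The lowest median, 0.07, was that of the bin starting at 60 Mb, where 1 of 12 genes rose. In the first bin 1 of 26 genes rose. The exact two-sided permutation test of the array medians gave p = 0.1, the smallest value that 3 against 3 arrays allow.

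Genes of chromosome 11 were shifted the other way by less, with a median of -0.15, 118 falls among 1146 genes (10.3%) and array medians of -0.11, -0.16 and -0.14. The exact permutation p was again 0.1, with the same limits. The corresponding medians over the Ring1B deficient arrays were -0.14, -0.18 and -0.19 for chromosome 11 and 0.05, 0.04 and 0.01 for chromosome 6, and over the double deficient arrays -0.10, -0.12 and -0.03, and 0.16, 0.16 and 0.27. Chromosome 6 did not stand apart in the double deficient cells. Their median log2 change from wild type was 0.20 there, 0.22 on chromosome 1, 0.21 on X and 0.20 on chromosome 13. It was lower on the remaining chromosomes, down to -0.09 on chromosome 11. Outside chromosome 6, 1311 of 13295 genes rose (9.86%) and 630 fell (4.74%). Among genes named here, Hoxa9, Hoxa10, Vax2, Tead4, Ccnd2, Nanog, Ezh2, Gdf3, Mest, Col1a2 and Mgp lie on chromosome 6, and what underlies the shift was not tested. Tead4, a trophectoderm factor, gave 16.1, 24.9 and 19.7 in wild type and 55.6, 58.8 and 58.4 in Eed deficient cells (log2 change 1.33, SE 0.20, adjusted p = 0.00076).

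**Figure D5:**
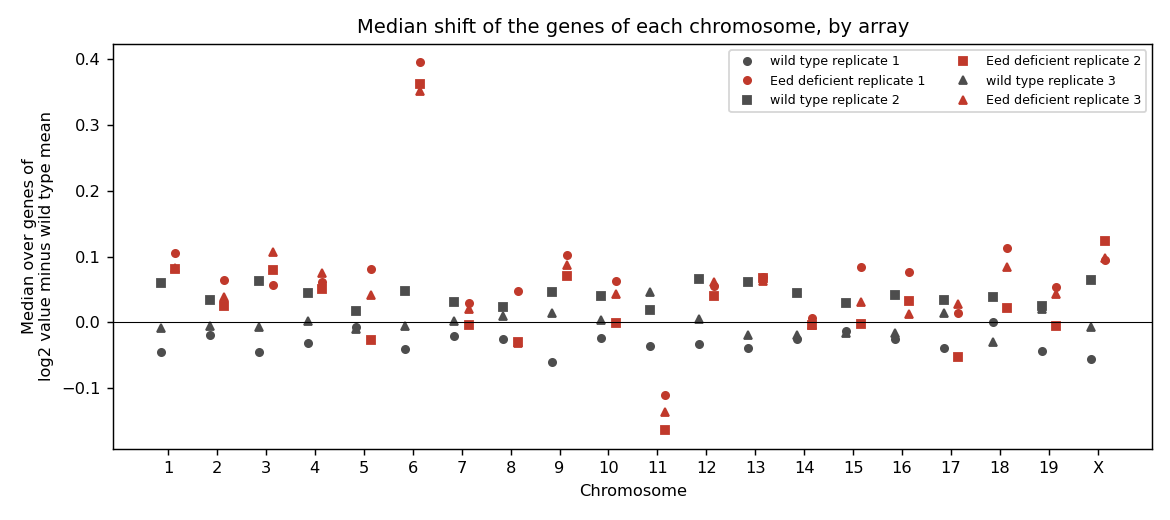
Median over the genes of each chromosome (horizontal axis) of the log2 value minus the wild type mean (vertical axis), for each wild type (grey) and Eed deficient (red) array. The 3 Eed deficient arrays stand at 0.35 to 0.40 on chromosome 6 and at -0.11 to -0.16 on chromosome 11.

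Eed deficient cells were also compared with Ring1B deficient cells directly, by their contrast in the same model, which holds no wild type array on either side. The Eed deficient arrays exceeded the Ring1B deficient ones for 471 genes (3.37%) and lay under them for 155 (1.11%), and 96 of the 471 (20.4%) lie on chromosome 6. Of the 26 Hox genes 1, Hoxb9, was higher and 0 lower, with a median difference of 0.00, and Bmi1 reached 311, 289 and 288 with Eed deficiency and 245, 222 and 253 with Ring1B deficiency (difference 0.30, SE 0.14, adjusted p = 0.28). Endoderm regulators had 1 of 15 higher, Sox17, at 373, 320.4 and 380.4 against 160.3, 196 and 227 (log2 difference 0.87, SE 0.18, adjusted p = 0.015). Of the 20 basement membrane genes, 6 were higher, among them Col4a1 at 1908, 2273 and 1909 against 1164, 1440.2 and 956 (log2 difference 0.79, SE 0.17, adjusted p = 0.024). Cyp26a1 gave 225, 209 and 202 against 73.3, 70.9 and 51.4 (log2 difference 1.64, SE 0.16, adjusted p = 0.00024), every Eed deficient array being the higher.

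Rhox, imprinted and germline genes also differed between the 2 mutants. Rhox6 gave 277, 554 and 359.8 with Eed deficiency and 28.03, 87.9 and 45.1 with Ring1B deficiency, and Rhox9 gave 134, 307 and 224 and 15.7, 27.9 and 15.8. The groups did not overlap, and the log2 differences were 2.85 (SE 0.36, adjusted p = 0.0011) and 3.15 (SE 0.35, adjusted p = 0.00052). Rhox13 went the other way, with 97.00, 194 and 144 against 362, 471 and 496 (log2 difference -1.62, SE 0.23, adjusted p = 0.002). Igf2 gave 694, 1474 and 1101 against 194, 289 and 159.8 (log2 difference 2.30, SE 0.40, adjusted p = 0.007) and Plagl1 gave 385, 554 and 527 against 219, 141 and 149 (log2 difference 1.51, SE 0.18, adjusted p = 0.0008), and 6 of the 30 imprinted genes were higher and 0 lower. Mest, outside the naming rule, gave 361, 269 and 348 against 24.4, 35.8 and 23.1 (log2 difference 3.35, SE 0.22, adjusted p = 4e-06). Of the 28 germline genes 2 were above and 7 below the Ring1B deficient level, and Tex13b, 1 of the 2, gave 309, 201 and 224 against 66.1, 57.3 and 67.9 (log2 difference 1.84, SE 0.21, adjusted p = 0.00071). Zic1 was lower, with 73.7, 57.2 and 67.6 against 182, 156 and 124 (log2 difference -1.15, SE 0.17, adjusted p = 0.0027), and so was Dpys, with 107, 139 and 89.9 against 266, 353 and 325 (log2 difference -1.46, SE 0.19, adjusted p = 0.0011). Fibroblast markers differed too, 7 of 36 being higher, beside the raised replicate 3. The number of genes that differed in either direction, 626, was 220 without Eed deficient replicate 3 and 377 without replicate 2.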

How the data were processed

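The 12 arrays were Affymetrix Mouse 430_2.0, and the deposited values are MAS5 signal intensity values on a linear scale, per the submitters' processing notes. Each array's trimmed mean is 100, so no further scaling was applied. Array number, not read depth, limits precision. Of 45037 probe sets, 34945 had 1 gene symbol. Probe sets above the 40th percentile of their array on at least 3 of 12 arrays were kept, and each gene was represented by its brightest kept probe set on average. log2(signal + 5) was fitted with limma 3.58.1 in R 4.3.3, as 1 mean per genotype with an intensity trend, and tested by Benjamini-Hochberg adjustment at 0.05 over 13984 genes. The model was tested on simulated data. Genes were named by size of change (15 rises, 15 falls, 5 per list, 10 for replicate 3) beside a set of Polycomb and lineage genes, and 51 genes outside that rule were named after their values were seen. Members and lists were chosen with earlier results of these data known. Promoter sequences and updated gene names are from RefSeq, GRCm38.p6, and pandas 2.3.3 and scipy 1.17.1 made the tables. Alternatives covered scaling, added value, filter, model, probe set choice, single arrays, a replicate block and chromosomes 6 and 11.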

Additional observations from a re-analysis of the deposited data

Results flagged for a closer look

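Of 4105 probe sets that the annotation used here leaves without a gene, 126 rose (3.07%) and 73 fell (1.78%) by the limma fit, so that signal changed in data outside the comparison of named genes. Their genes were not identified here. The probe set with the largest rise among them went from 0.753, 5.65 and 0.500 in wild type cells to 121.9, 67.0 and 96.8 in Eed deficient cells, a log2 change of 3.81 (SE 0.27, adjusted p = 1.8e-06). The probe set with the largest fall went from 224, 102 and 72.7 to 10.97, 6.70 and 19.1, a log2 change of -2.91 (SE 0.35, adjusted p = 0.00011). In both cases the 3 arrays of one genotype lay apart from the 3 of the other.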

How the results depend on the processing

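The number of genes that rose, 1509, was 1326 with quantile normalization, 1194 with median centring, 986 with the 6 arrays alone in the model and 1017 to 1465 with 1 array left out. The number that fell, 637, was 959 with median centring, 311 with the 6 arrays alone and 334 to 630 with 1 array or chromosome 6 left out. It was 427, 547 and 366 without wild type replicates 1, 2 and 3, and 586, 398 and 334 without Eed deficient replicates 1, 2 and 3. The genes that differed from Ring1B deficient cells, 626, ranged from 220 to 689 with 1 array left out. The unannotated probe sets that changed, 199, were 119 with the 6 arrays alone and 120 to 179 with 1 array left out. The added value (1490 higher and 624 lower with 1, 1475 and 670 with 32), the filter (1361 and 545 with none, 1396 and 673 with a stricter one), the intensity trend (1422 and 511 without it) and the mean of probe sets (1486 and 652) moved these 2 counts by less than 1.5 times. The genes past 2-fold, 767 and 130, were 277 and 54 with an added value of 32, and that value also lowered list medians by over 1.5 times, to 0.25 from 0.57 for other homeobox genes, 0.35 from 0.70 for mesoderm and heart, 0.18 from 0.35 for blood and endothelial genes, 0.31 from 0.54 for secreted ligands, 0.38 from 0.74 for retinoic acid genes and 0.32 from 0.49 for ERK response genes. With no filter the mesoderm and blood medians were 0.37 and 0.15, and with a stricter one 1.47 and 0.57, with 0.90 for other homeobox genes. The trophoblast median, 0.80, was 0.51 with the mean of probe sets. Leaving out chromosome 6, or 6 and 11, was chosen after seeing the data, and left 1311 or 1244 rises.

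Same-numbered wild type and Eed deficient arrays had deviations from their group means that correlated at 0.43, 0.45 and 0.098. The third value was weak, and the numbers were not treated as pairs. Which genes are not called depends in part on this choice. With a replicate block over the 12 arrays, 2295 genes rose, 1493 fell, 1706 differed from Ring1B deficient cells and 391 unannotated probe sets changed. Only the first and second of the 3 wild type arrays clearly correlated best with the Eed deficient array of their own number. For the third, the value was 0.098 with its own number against -0.14 and 0.044 with Eed deficient replicates 1 and 2. Between same-numbered Ring1B deficient and Eed deficient arrays the values were 0.40, 0.61 and 0.18. Between same-numbered Eed deficient and double deficient arrays they were 0.30, 0.41 and 0.059. The main model left this shared variation in its estimate of spread.

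Of the 184 genes named by rule, 132 were called, and 103 of these kept the call under all 16 planned settings, with none changing sign among the called. The calls lost numbered at most 19, with the 6 arrays alone and without Eed deficient replicate 3. Of the 52 not called, 26 were called in at least 1 setting and 10 changed sign while uncalled. No scaling moved the median change of all genes by over 0.1 on the log2 scale. The medians of the neural and X inactivation centre lists, 0.01 each, became -0.08 and -0.03 under quantile normalization, and that of glycolysis genes, -0.10, became 0.04. The causes of these shifts were not tested. Limits are 3 arrays per genotype, 1 line each and dim probe sets near the filter.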
